A study of Mus musculus with 4 samples.

Results

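Siglecs are cell-surface receptors of leukocytes that bind sialic acid, the sugar that caps many glycans on the body's own cells. The 7 members described here are Siglecf, Siglece, Siglecg, Cd33, Siglech, Siglec1 and Cd22, 7 of the 16308 genes in the deposited data. They were picked by gene symbol, with their levels in these data already known, so their levels and differences are a description and carry no test. All 7 had counts in each of the 4 libraries.

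CD45+ leukocytes had been sorted from the muscularis, the muscle layer of the mouse small intestine, after surgical handling of the gut, and profiled by droplet-based single cell RNA sequencing. There was 1 library for each of 4 groups: WT mice (C57BL/6J) and CCR2 KO mice (Ccr2-/-, strain B6.129S4-Ccr2tm1Ifc/J), each at 24 h and at 72 h post-injury. All mice were 12 weeks old and female, all had undergone the surgery, no untreated library was analysed here, and each library pools several mice whose cells cannot be told apart. Monocytes need CCR2, a receptor for CCL2, to exit the bone marrow, and the allele is not limited to a cell type. With 1 library a group, every difference below is a difference between 2 libraries with no replicate check, and every interval is a 95% interval for counting error only.

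Most Siglecs carry inhibitory motifs in their tail that recruit the phosphatases SHP-1 (Ptpn6) and SHP-2 (Ptpn11) and so damp activating signals. Siglec-F, Siglec-E, Siglec-G and CD33 belong to the fast-evolving CD33-related branch of myeloid cells and lymphocytes, whereas CD22 (of B cells) and Siglec-1 (CD169, of macrophages) are conserved among mammals. Siglec-H lacks such a motif and signals through the adaptor DAP12 (Tyrobp), and Siglec-1 has a long extracellular part with no known inhibitory motif. In the gut wall Siglec-F is best known from eosinophils and Siglec-1 from resident macrophages.

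In the GENCODE annotation of GRCm38, 4 of the 7 genes lay within 309 kb of chromosome 7: Siglecf (chr7:43351341-43359531, plus strand), Siglecg (chr7:43408204-43418358, plus), Cd33 (chr7:43524216-43544428, minus) and Siglece (chr7:43651070-43660161, minus). Siglech (chr7:55768178-55778925, plus) and Cd22 (chr7:30865402-30880342, minus) lay elsewhere on chromosome 7, and Siglec1 on chromosome 2 (chr2:131069220-131086765, minus). The 250 bases before the start of 6 of the 7 genes were compared, from RefSeq on GRCm38. The longest identical run of the 15 pairs was one of 16 bases between Siglecf and Cd33, both of which had their highest level in neutrophil-like cells. The second-longest run of any pair was 10 bases and the median 8, and Siglece, also highest in those cells, shared at most 8 bases with either gene. The 193 bases directly before each of these 2 starts are shown for that reason, 5′ to 3′ on the strand of the gene, with the shared run in capitals.

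Siglecf (chr7:43351148-43351340, plus strand): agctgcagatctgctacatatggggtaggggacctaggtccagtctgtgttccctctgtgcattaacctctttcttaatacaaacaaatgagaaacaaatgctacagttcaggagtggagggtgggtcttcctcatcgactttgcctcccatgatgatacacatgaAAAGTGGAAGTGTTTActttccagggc
Cd33 (chr7:43533172-43533364, minus strand): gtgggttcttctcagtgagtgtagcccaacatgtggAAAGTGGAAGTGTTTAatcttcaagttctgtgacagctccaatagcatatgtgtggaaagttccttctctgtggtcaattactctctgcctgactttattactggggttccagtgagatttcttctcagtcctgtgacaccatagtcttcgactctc

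The run spans positions -27 to -12 before the start in Siglecf and -157 to -142 in Cd33, and the Cd33 stretch lies in an intron of 1 longer annotated Cd33 transcript. It holds GGAAGT, the core that ETS factors are known to bind, in both genes. This motif was searched on both strands of the 250 bases and was present in 19.7% of 32851 promoters of that length. Among the 6 members it matched once each in Siglecf, Cd33 and Siglech. TGTGGT, a RUNX core, matched in Cd33 and Siglech and is held by 14.0% of promoters, and TTNNGCAA, a C/EBP core, matched in Siglech and is held by 9.56%. These matches are letters in a window and not measured binding.

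The WT libraries held 1674 cells at 24 h and 1315 at 72 h, and the CCR2 KO libraries 1774 and 1048, with 9736725 to 21206308 unique molecular identifiers (UMIs, counted mRNA molecules) a library and a median of 3281.5 to 12859 a cell. Ccr2 itself was at 720 and 923 CPM in the WT libraries and at 47.3 and 53.7 CPM in the KO libraries at 24 h and 72 h, and within monocyte/Mφ-like cells it was lower in KO by 3.0 and 3.65 on the log2 scale. Whether the counted 3′ stretch lies in the deleted part is not given in the sources used here. Levels are given as CPM, in which a gene holding every UMI of a set of cells would be at 1000000. Classes were named from markers and are written "-like". The make-up of the libraries differed: monocyte/Mφ-like cells were 73.1% and 60.2% of cells in WT but 11.6% and 11.5% in CCR2 KO, and neutrophil-like cells were 18.3% and 14.6% in WT but 75.5% and 56.4% in KO. Only 4 barcode sequences occurred in more than 1 library.

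The leading class differed between Siglecs, though some of them shared the same class. With the 4 libraries pooled, Siglecf was highest in neutrophil-like cells (152 CPM), with conventional dendritic cell (cDC)-like cells next at 14.4 CPM. Siglece was likewise highest in neutrophil-like cells (383 CPM, next monocyte/Mφ-like at 54.2 CPM), as was Cd33 (617 CPM, next monocyte/Mφ-like at 59.3 CPM). Siglec1 was highest in monocyte/Mφ-like cells at 50.1 CPM and Siglech in plasmacytoid dendritic cell (pDC)-like cells at 571 CPM. Cd22 and Siglecg were highest in B-like cells, at 173 CPM (next monocyte/Mφ-like, 8.09 CPM) and 328 CPM (next cDC-like, 104 CPM). These are levels of 1 gene across classes, since counts of 3′ ends are not compared between genes. Under each of 7 other ways to choose or group the cells the leading class was unchanged for Siglecf, Siglece, Cd33, Siglec1 and Cd22. At a 5% limit on mitochondrial UMIs only 7 of the 71 B-like cells were left, too few for a stable level, and Siglecg was then at 97.7 CPM in B-like and 99.7 CPM in cDC-like cells.

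**Figure D1:**
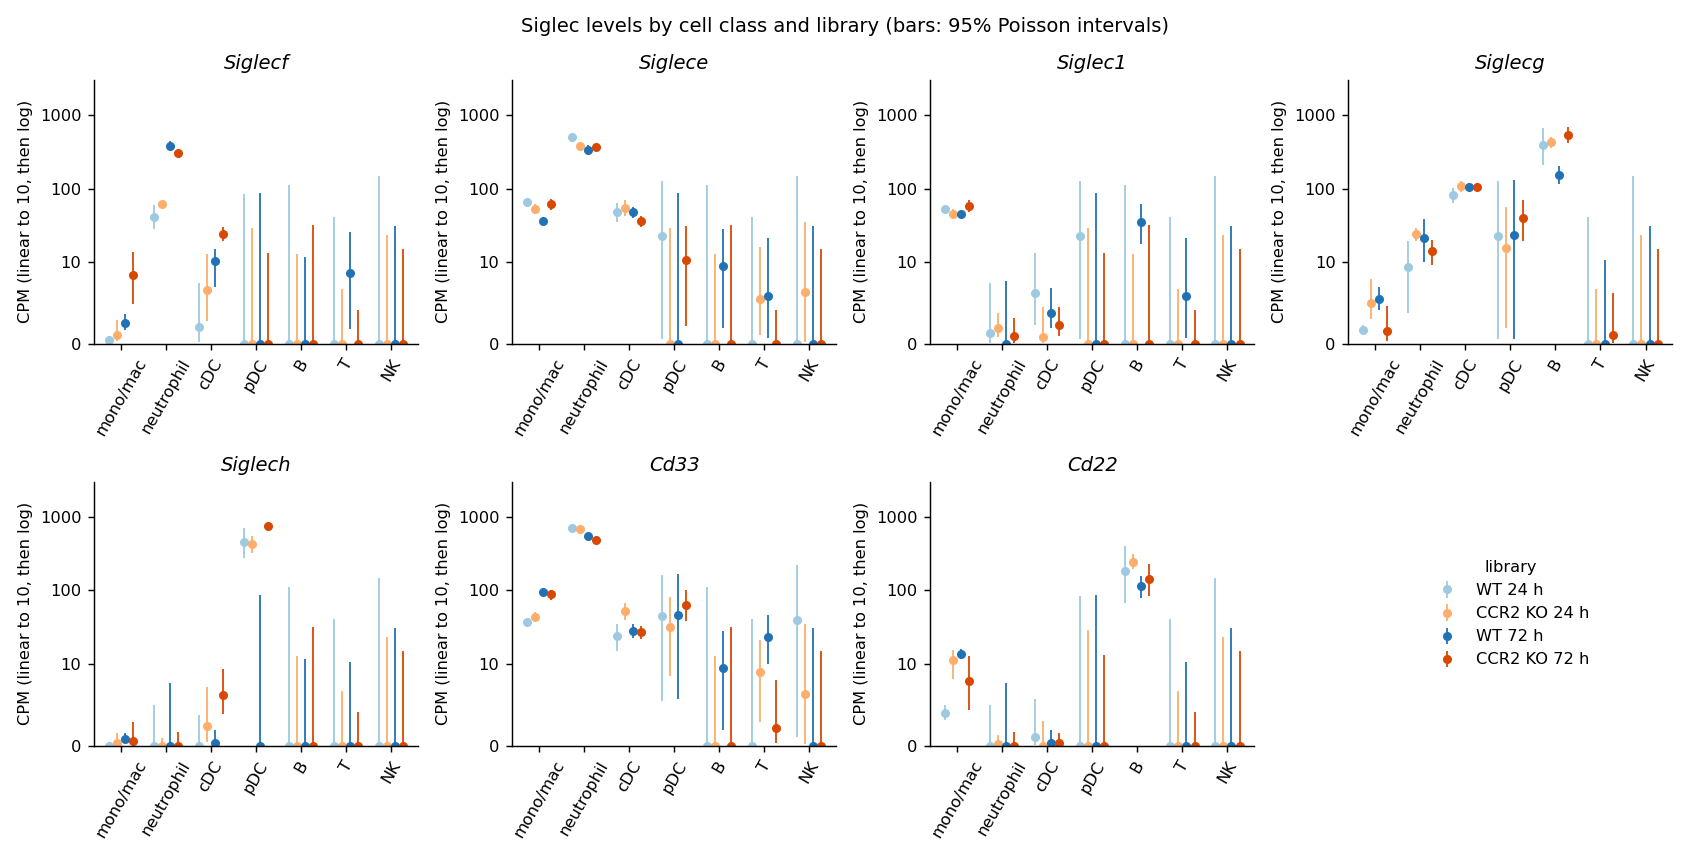
Level of each Siglec (CPM, on an axis that is linear to 10 and logarithmic above) in 7 cell classes, with 1 point for each of the 4 libraries and bars for the 95% Poisson intervals, which cover counting error only. Siglecf in neutrophil-like cells lies at 41.4 and 62.3 CPM at 24 h and at 384 and 307 CPM at 72 h, while Siglece and Cd33 in the same cells keep within 336 to 502 CPM and 480 to 717 CPM.

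Siglecf, the CD33-related receptor of eosinophils, was the member whose level within one class differed most between the times. In neutrophil-like cells it was at 41.4 CPM in WT 24 h (28.1 to 58.8, 31 UMIs), 62.3 CPM in CCR2 KO 24 h (55 to 70.3, 262 UMIs), 384 CPM in WT 72 h (331 to 444, 184 UMIs) and 307 CPM in CCR2 KO 72 h (284 to 330, 696 UMIs). Both 72 h libraries thus lay above both 24 h libraries, with no overlap of the intervals. The 72 h level was 9.28-fold that at 24 h in WT (log2 3.21, 2.66 to 3.81) and 4.93-fold in CCR2 KO (log2 2.30, 2.09 to 2.51). In neutrophil-like cells 23.9% of all genes tested in WT and 28.2% in CCR2 KO were at least 2-fold higher at 72 h, so a gene past 2-fold in this direction was common. Between genotypes Siglecf differed far less, by a log2 ratio of 0.59 (0.05 to 1.18) at 24 h and -0.32 (-0.56 to -0.08) at 72 h.

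A neutrophil-like cluster led by Siglecf, Egr3, Mmp9, Gm19951 and Mir142hg held most Siglecf UMIs at 72 h. The Siglecs had been left out of the genes used for clustering. Siglecf leads the cluster, so its level there (537 CPM, against 21.2 to 81.8 CPM in the other 5 neutrophil-like clusters) is what describes the cluster and no finding. The cluster held 16 of 1674 cells in WT 24 h (0.956%), 52 in CCR2 KO 24 h (2.93%), 105 in WT 72 h (7.98%) and 375 in CCR2 KO 72 h (35.8%). These shares of all cells also carry the number of neutrophil-like cells in each library. Of neutrophil-like cells alone, the cluster held 16 of 307, 52 of 1340, 105 of 192 and 375 of 591 in the same order. It took 7.14%, 13.9%, 62.8% and 79.1% of all Siglecf UMIs of these libraries. In the other neutrophil-like clusters Siglecf was at 38.7 (28 UMIs), 54.7 (224), 108 (27) and 59.5 CPM (65) in the same order. With these clusters pooled, the 72 h level was above the 24 h level in WT (log2 1.48, 0.66 to 2.30) but not beyond the counting interval in CCR2 KO (log2 0.12, -0.30 to 0.52). Among them Siglecf was lowest in the cluster led by Retnlg, S100a9, S100a8, Gm5483 and Wfdc21 (21.2 CPM, 14.1 to 30.7). It was highest in the cluster led by Il1r2, G0s2, Egln3, Ptgs2 and Cxcr2 (81.8 CPM, 68.9 to 96.3). The cluster led by Cxcr2, Ifit3b, Gm13822, Trim30b and Slfn4 overlapped with it (78.9 CPM, 64.4 to 95.7). In the Il1r2-led cluster of CCR2 KO Siglecf was at 65.3 CPM (53.4 to 79.0, 536 cells) at 24 h and 342 CPM (217 to 513, 21 cells) at 72 h. In the rest of these clusters the intervals of the KO libraries overlapped.

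The study gives the name eosinophils to cells marked by Siglecf, Cxcr4 and Pim1, whereas the cell names used here were rebuilt from marker lists, so the names may differ for the same cells. The name of the Siglecf-led cluster was therefore checked against eosinophil markers, since Siglec-F is an eosinophil receptor. Of 8 listed eosinophil genes 6 were in the files, of which Il5ra, Prg2, Ear1 and Ear6 were at 0 and Ccr3 and Alox15 at 3.24 and 4.53 CPM, a sum of 7.77 CPM. Of 10 neutrophil genes 9 were at 20 CPM or more, with a sum of 27554 CPM against 100164 CPM in the other neutrophil-like clusters. Csf3r, the G-CSF receptor, was at 1242 against 1640 CPM and Mmp9, a granule protease, at 3444 against 2191 CPM. S100a8 was at 8676 against 40229 CPM, Retnlg at 36.9 against 3388 CPM and Ly6g at 1.29 against 102 CPM. The neutrophil list as a whole was thus present at a lower sum, with Ly6g near 0. Cxcr4, a chemokine receptor, was at 1094 against 764 CPM and Pim1, a kinase, at 2523 against 2104 CPM, both read after the other values were known. Mast cell or basophil markers summed to 62.1 CPM in this cluster in CCR2 KO 72 h and were at 0 in its other 3 libraries, and their part in the Siglecf values was not tested.

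Outside neutrophil-like cells Siglecf was low. In cDC-like cells it was at 2.06 (2 UMIs), 6.52 (8), 10.3 (30) and 23.9 CPM (85) in the same order. The CCR2 KO level at 72 h was the highest of the 4 and 1.21 above WT on the log2 scale (0.59 to 1.86). The neutrophil list was also highest in these cDC-like cells, with sums of 105, 178, 61.0 and 410 CPM and S100a8 at 5.15, 12.2, 1.03 and 142 CPM, and its part in the Siglecf value was not tested. With cells grouped in other ways, or without cells over 5% mitochondrial UMIs or with non-immune marker UMIs, the log2 ratio was 0.47 to 0.83. In monocyte/Mφ-like cells Siglecf was at 0.479 (9 UMIs), 1.11 (4), 2.50 (29) and 8.39 CPM (16). It was at 0 in every B-like, NK-like and pDC-like sum. In T-like cells Siglecf was at 8.71 CPM in WT 72 h (3 UMIs) and at 0 in both CCR2 KO libraries. The WT 72 h value is near the cDC-like and above the monocyte/Mφ-like level of that library. How much of these low levels is background was not tested.

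Siglece, an inhibitory receptor of neutrophils and macrophages, was present in neutrophil-like cells of all 4 libraries. It was at 502 CPM in WT 24 h (453 to 556, 376 UMIs), 378 in CCR2 KO 24 h (359 to 397, 1589 UMIs), 336 in WT 72 h (286 to 392, 161 UMIs) and 363 in CCR2 KO 72 h (338 to 388, 823 UMIs). WT 24 h stood above the other 3, whose intervals overlapped. The KO level at 24 h was lower than WT by a log2 ratio of -0.41 (-0.57 to -0.25), and at 72 h the ratio was 0.11 (-0.14 to 0.36). The ratio of 72 h to 24 h was -0.58 (-0.85 to -0.31) in WT and -0.06 in CCR2 KO. In the Siglecf-led cluster it was at 382, 345 and 356 CPM in the KO 24 h and both 72 h libraries (WT, then KO), close to the 378, 328 and 370 CPM of the other neutrophil-like clusters. By cluster, with the libraries pooled, Siglece was highest in the one led by Asprv1, Chil1, Il1f9, Acod1 and Mrgpra2b (478 CPM, 429 to 531). Its interval overlapped those of the Il1r2-led (444 CPM, 414 to 477) and Retnlg-led clusters (429 CPM, 394 to 466). The Asprv1-led cluster was at 763 CPM in WT 24 h, but at 355 and 431 CPM in CCR2 KO at 24 h and 72 h. Siglece was lowest in the cluster led by Hcar2, Il1f9, 4833407H14Rik, Mreg and Rab15 (185 CPM, 160 to 213).

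In monocyte/Mφ-like cells Siglece was at 64.7 CPM in WT 24 h (1215 UMIs), 52.7 in CCR2 KO 24 h (189), 36.4 in WT 72 h (422) and 60.8 in CCR2 KO 72 h (116). WT 72 h was the lowest, by a log2 ratio of -0.83 (-0.99 to -0.67) against WT 24 h. At 72 h CCR2 KO stood above WT by 0.74 (0.43 to 1.04), but at a 5% mitochondrial limit, which left 43 of the 121 KO cells, this ratio was -0.24. In cDC-like cells the 4 values were 48.4, 54.6, 47.2 and 35.7 CPM. Siglece UMIs lay mostly in monocyte/Mφ-like cells in the WT libraries (73.4% and 56.2%) and mostly in neutrophil-like cells in the KO libraries (85.8% and 76.6%).

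Cd33, the receptor that gives the branch its name, was at 717 CPM (537 UMIs), 681 (2867), 543 (260) and 480 CPM (1089) in neutrophil-like cells, in the order of libraries used above. The 24 h libraries lay above the 72 h libraries, and the genotypes did not differ beyond counting error (log2 -0.07, -0.21 to 0.06 at 24 h, and -0.18, -0.37 to 0.02 at 72 h). The log2 ratio of 72 h to 24 h was -0.40 (-0.62 to -0.19) for WT cells, against -0.51 (-0.61 to -0.40) for KO cells. Outside the Siglecf-led cluster these ratios were -0.04 (-0.29 to 0.21) and -0.11 (-0.24 to 0.01), and inside it Cd33 was at 460, 363 and 335 CPM in the KO 24 h and both 72 h libraries (WT, then KO). Cd33 was highest in the Retnlg-led cluster, at 945 CPM (894 to 999).

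The median gene of neutrophil-like cells was itself shifted between the times, which touches every such ratio. Scaling by trimmed mean of M values moved all log2 ratios of 72 h to 24 h in these cells by -0.64 in WT and -0.52 in CCR2 KO, and DESeq2 size factors by -0.61 and -0.53. On the trimmed-mean scale Siglecf was at 2.58 in WT, Cd33 at -1.04 and -1.03 in WT and CCR2 KO, and Siglece at -1.22 in WT. Siglecf stayed above and Cd33 below the 24 h level under either scaling.

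In monocyte/Mφ-like cells Cd33 differed between the times, and not beyond counting error between the genotypes. It was at 37.8 CPM in WT 24 h (35.1 to 40.7, 710 UMIs), 44.0 in CCR2 KO 24 h (158 UMIs), 94.2 in WT 72 h (1091 UMIs) and 88.1 in CCR2 KO 72 h (168 UMIs). The 72 h libraries stood 2.49-fold (log2 1.32, 1.18 to 1.46) and 2.0-fold (log2 1.0, 0.68 to 1.32) above 24 h in WT and CCR2 KO, where 13.7% and 12.7% of all genes tested in these cells were 2-fold higher. The CCR2 KO ratio ranged from 0.60 to 0.95 under several other ways to choose the cells. Between genotypes the log2 ratios were 0.22 (-0.04 to 0.47) at 24 h and -0.10 (-0.34 to 0.14) at 72 h. The neutrophil list summed to 836, 227, 296 and 301 CPM in these cells, and its part in the Cd33 values was not tested.

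**Figure D2:**
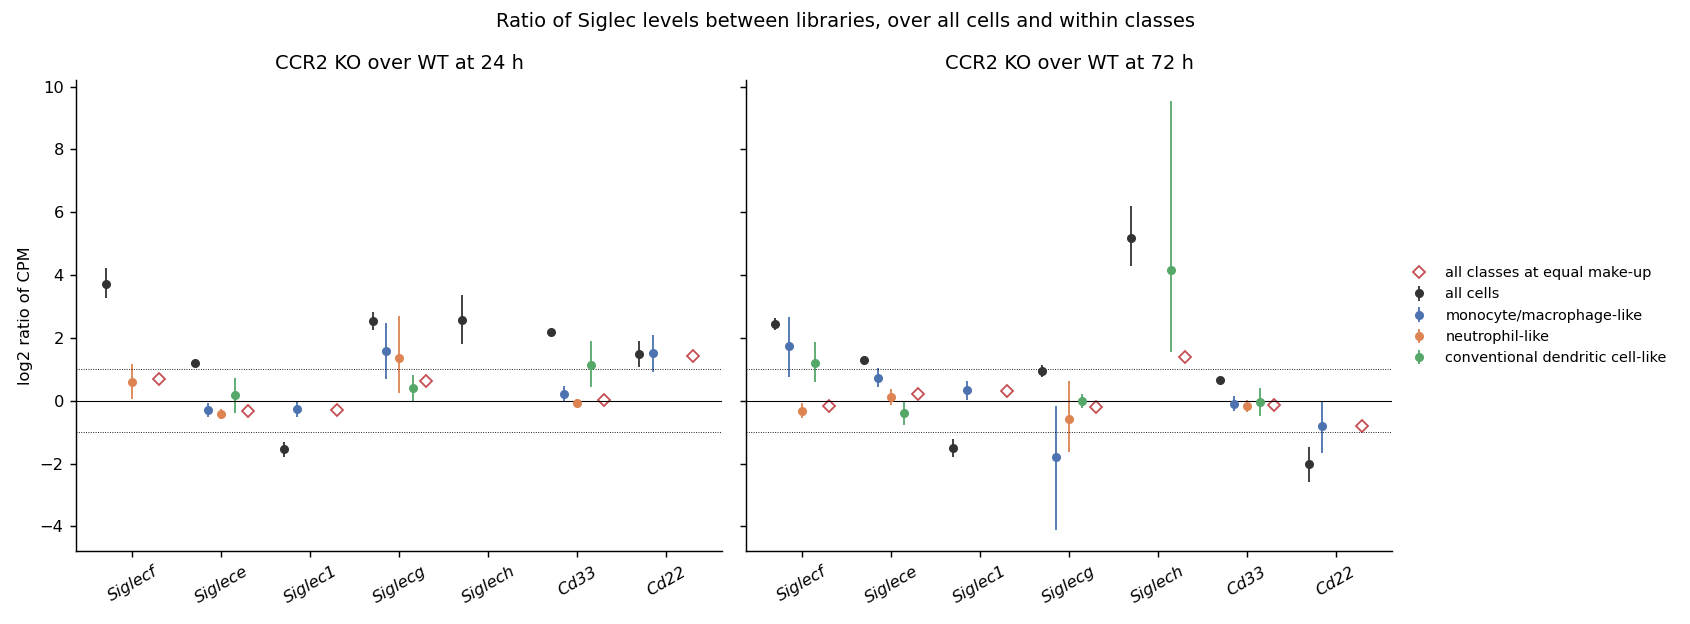
Log2 ratio of the CPM in CCR2 KO over WT at 24 h and at 72 h for each Siglec, over all cells and within 3 classes, where bars are 95% counting intervals, open diamonds the ratio with every class at equal make-up, and dotted lines 2-fold. Ratios with too few UMIs are left out, and Siglecf over all cells lies at 3.73 and 2.44, but within neutrophil-like cells at 0.59 and -0.32.

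Siglecg, which restrains B cell receptor signalling, was at 395 CPM in WT 24 h (13 UMIs, 5 cells), 424 in CCR2 KO 24 h (122, 35 cells), 155 in WT 72 h (49, 20 cells) and 537 in CCR2 KO 72 h (63, 11 cells) in B-like cells. WT 72 h was the lowest. The B-like cells of that library also carried monocyte/Mφ markers at a sum of 19063 CPM, against 25.6 to 60.8 CPM in the B-like cells of the other libraries and 35894 CPM in the Mφ-like cells of WT 72 h. The part of these markers in the B-like values was not tested, and with a marker gate on each cell Siglecg there was 255 CPM. Cd22, the inhibitory co-receptor of B cells, was at 183 (6 UMIs), 247 (71), 114 (36) and 145 CPM (17) in the same cells and the same order, with overlapping intervals except that CCR2 KO 24 h lay above WT 72 h.

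In 3 of the 4 libraries most Siglecg UMIs were in cDC-like cells. These cells held 60.3%, 35.4%, 71.5% and 77.4% of the libraries' Siglecg UMIs, against 9.92%, 32.4%, 11.3% and 13% in B-like cells, so that in CCR2 KO 24 h both classes held like shares. In cDC-like cells its level was 81.3 CPM (79 UMIs), 108 (133), 106 (309) and 106 CPM (376). The log2 ratios between genotypes were 0.41 (0.00 to 0.83) at 24 h and -0.01 (-0.23 to 0.21) at 72 h. It was at 85.2 CPM (76.6 to 94.6) in the cluster led by Xcr1, Ube2c, Itgae, Top2a and Birc5, the type 1 dendritic cells, and at 120 CPM (111 to 131) in the cluster led by Ccl17, Cd209a, Ccl22, Ccr7 and Fscn1. Of 8 B cell markers, 1 was at 20 CPM or more in the cDC-like cells of each library, while Cd79a was at 0 in 3 of the 4 libraries. In neutrophil-like cells Siglecg was at 9.35 (7 UMIs), 24.0 (101), 20.9 (10) and 14.1 CPM (32).

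Cd22 also gave UMIs in monocyte/Mφ-like cells, where 64.0% of its 453 UMIs lay. Its level there was 3.99 CPM in WT 24 h (75 UMIs), 11.4 in CCR2 KO 24 h (41), 13.7 in WT 72 h (159) and 7.87 in CCR2 KO 72 h (15), with WT 24 h the lowest and its interval overlapping that of CCR2 KO 72 h. The WT log2 ratio of 72 h to 24 h was 1.78 (1.38 to 2.20), and the KO to WT ratio was 1.52 (0.93 to 2.08) at 24 h and -0.80 (-1.67 to -0.04) at 72 h. The B cell markers Cd79a and Ms4a1 were near 0 in these cells: Cd79a was at 0, 0.557, 0.518 and 2.62 CPM and Ms4a1 at 0, 0, 0.518 and 0 CPM. In B-like cells of the same libraries Cd79a was at 1058 to 3346 CPM. Ighm and Cd79b were not near 0 in monocyte/Mφ-like cells, at 30.4, 24.8, 198 and 142 CPM and at 6.65, 11.4, 32.4 and 34.6 CPM, and the part of B cell RNA in the Cd22 values was not tested. At a 5% mitochondrial limit the KO to WT ratio of Cd22 in monocyte/Mφ-like cells at 72 h was -3.32.

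Siglec1, the macrophage receptor CD169, lay mostly in monocyte/Mφ-like cells, which held 98.0%, 93.6%, 89.8% and 90.9% of its UMIs. Its level there was 53.2 CPM in WT 24 h (1000 UMIs), 44.6 in CCR2 KO 24 h (160), 45.4 in WT 72 h (526) and 57.7 in CCR2 KO 72 h (110). These 4 values lay close together: the log2 ratios were -0.26 (-0.51 to -0.01) and 0.34 (0.03 to 0.64) for CCR2 KO over WT and -0.23 (-0.38 to -0.08) and 0.37 (0.01 to 0.73) for 72 h over 24 h. At a 5% mitochondrial limit both positive ratios turned negative, to -0.44 and -0.40. In WT 72 h, non-immune-like and B-like cells had Siglec1 at 47.9 CPM (23 UMIs) and 34.9 CPM (11 UMIs). Both also carried monocyte/Mφ markers, at 35507 and 19063 CPM, whose part was not tested, and Cd22 was at 50.0 CPM in the same non-immune-like cells.

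Siglech, the pDC receptor, had 88.2% of its 321 UMIs in the few pDC-like cells. There it was at 455 CPM in WT 24 h (20 UMIs, all in 1 of 4 cells), 425 in CCR2 KO 24 h (54 UMIs, 7 cells) and 742 in CCR2 KO 72 h (209 UMIs, 16 cells). In WT 72 h none of the 3 cells had a UMI, and of 8 pDC markers these cells lacked Klk1, Cox6a2 and Ly6d and held the other 5, with Tcf4 at 1408 CPM (60 UMIs), Ccr9 at 540 CPM (23 UMIs), Runx2 at 211 CPM and Pacsin1 and Spib at 46.9 CPM each. With so few cells the levels of the libraries rest on single cells: 1 cell held 29 of the 58 Siglech UMIs of CCR2 KO 24 h (50.0%), and 1 held 46 of the 232 of CCR2 KO 72 h (19.8%). In WT 72 h 10 of the 11 Siglech UMIs were in monocyte/Mφ-like cells, at 0.864 CPM. Most of its UMIs were in cells with over 5% mitochondrial UMIs: without these cells 17 of the 30 pDC-like cells were left, and Siglech over all cells was at 0.652 CPM in CCR2 KO 24 h and 3.30 CPM in CCR2 KO 72 h (5.56 and 23.8 CPM with them) and at 0 in both WT libraries. It was at 0 in every neutrophil-like, T-like, B-like and NK-like sum.

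**Figure D3:**
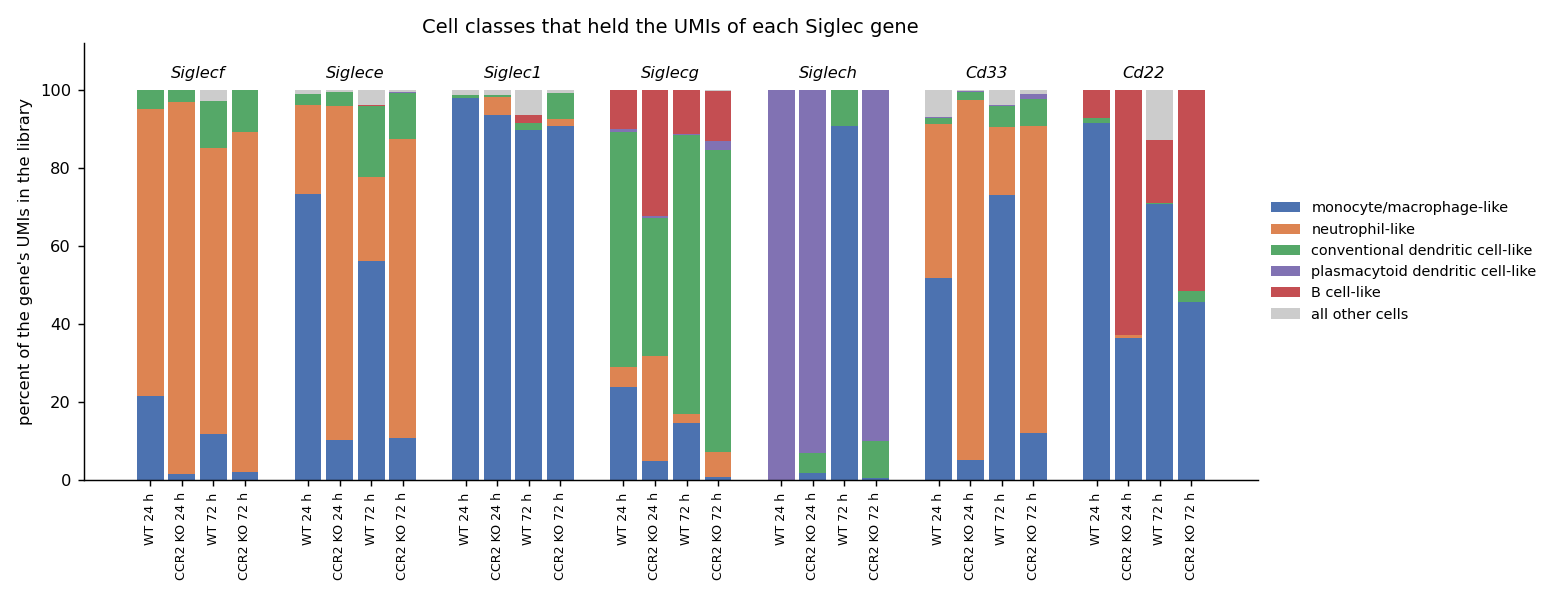
Stacked bars of the percent of each Siglec's UMIs that lay in each cell class, 1 bar for each of the 4 libraries. Siglec1 stays in monocyte/Mφ-like cells in all 4 (89.8% to 98.0%), while Siglece and Cd33 UMIs lie mostly in monocyte/Mφ-like cells in WT and mostly in neutrophil-like cells in CCR2 KO.

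Over all cells, a level also carries the make-up of its library. At 24 h, 6 of 7 Siglecs were at least 2-fold higher in CCR2 KO than in WT and Siglec1 was 2-fold lower, where 15.1% and 5.90% of all genes tested were higher and lower. At 72 h Siglecf, Siglece and Siglech were higher and Siglec1 and Cd22 lower in CCR2 KO (12.5% and 5.93% of all genes). In WT, Siglecf, Siglecg and Cd22 were higher at 72 h than at 24 h and none was lower (16.1% and 4.01% of all genes). In CCR2 KO, Siglecf and Siglech were higher and Cd33 and Cd22 lower (13.4% and 4.67% of all genes). Each library enters 2 of these 4 comparisons, which are therefore not independent.

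The largest of these differences was that of Siglech at 72 h, at 23.8 CPM in CCR2 KO (232 UMIs) and 0.663 CPM in WT (11 UMIs), a log2 ratio of 5.17 (4.30 to 6.19). These libraries held only 16 and 3 pDC-like cells. The ratio was 3.70 at a 5% mitochondrial limit and 3.77 without cells with a non-immune marker UMI. Siglecf over all cells was at 1.98 CPM in WT 24 h (42 UMIs), 26.3 in CCR2 KO 24 h (274), 15.1 in WT 72 h (250) and 82.0 in CCR2 KO 72 h (798). Its ratio of CCR2 KO to WT was 13.3-fold at 24 h and 5.44-fold at 72 h. With each cell weighted equally, so that deep cells did not count for more, the 24 h log2 ratio of Siglecf was 2.29 in place of 3.73. Cd22 over all cells was at 3.87 (82 UMIs), 10.8 (113), 13.6 (225) and 3.39 CPM (33), so that KO stood above WT at 24 h (log2 1.49) and below it at 72 h (log2 -2.0). At a 5% mitochondrial limit the latter was -4.25.

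When each class was given the same weight in both libraries, the log2 ratios between genotypes lay closer to 0 for each member that could be computed. At 24 h, over the 3 classes with at least 20 cells in both, the log2 ratio of CCR2 KO to WT went from 2.20 to 0.02 for Cd33, from 1.19 to -0.34 for Siglece, from -1.55 to -0.29 for Siglec1, from 3.73 to 0.68 for Siglecf and from 2.54 to 0.62 for Siglecg. For Cd22 it stayed at 1.41 (from 1.49). At 72 h it went from 2.44 to -0.18 for Siglecf, from 1.29 to 0.23 for Siglece, from -1.51 to 0.32 for Siglec1 and from 0.66 to -0.15 for Cd33. The differences between times behaved otherwise for Siglecf, whose log2 ratio of 72 h to 24 h was 3.16 at equal make-up in WT (2.93 measured) and 2.30 in CCR2 KO (1.64 measured). For Cd33 these ratios were 0.00 (0.48 measured) and -0.17 (-1.07 measured), being sums of a higher level in monocyte/Mφ-like and a lower one in neutrophil-like cells.

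Within classes, the members past 2-fold differed from class to class. In monocyte/Mφ-like cells at 24 h Siglecg and Cd22 were 2-fold higher in CCR2 KO, of 5 members with at least 20 UMIs in either library (3.84% of all genes). At 72 h Siglecf was higher and Siglecg lower, of 6 (7.30% and 5.22%). In CCR2 KO these calls rest on 16 UMIs of Siglecf and 3 of Siglecg. The Siglecf log2 ratio was 1.74, against 0.27 at a 5% mitochondrial limit and 3.02 with each cell weighted equally. In WT at 72 h against 24 h Siglecf, Siglecg, Cd33 and Cd22 were higher, of 6 (13.7% of all genes higher and 6.35% lower), and in CCR2 KO Cd33 was the only one of 4 (12.7% and 5.36%). In neutrophil-like cells Siglecg at 24 h was the only member 2-fold higher in CCR2 KO, of 4 (11.3% of all genes), and where 2.09% of all genes were lower, and at 72 h none of 4 was (6.98% higher and 1.26% lower). Across the times Siglecf was the only member past 2-fold on the CPM scale in these cells, of 3 in WT (23.9% of all genes higher and 5.76% lower) and 4 in CCR2 KO (28.2% and 3.85%). On the trimmed-mean scale Cd33 was also past 2-fold lower, at log2 -1.04 in WT and -1.03 in CCR2 KO, as were Siglece in WT (-1.22) and Siglecg in CCR2 KO (-1.29). In cDC-like cells Cd33 was higher in CCR2 KO at 24 h, of 3 (52.1 against 23.7 CPM, 4.66% of all genes), and Siglecf and Siglech at 72 h, of 5 (2.79%). Siglech there rests on 1 UMI in WT 72 h (log2 4.17, 1.54 to 9.53). Across the times Siglecf was higher in these cells in WT, of 4 (9.57% of all genes), from 2 UMIs at 24 h (log2 2.33, 0.35 to 5.44), and Siglecf and Siglech in CCR2 KO, of 5 (8.64%).

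The shares of cells with a UMI were compared at an equal depth of 1000 UMIs a cell, drawn at random, with shallower cells left out. Siglecf was then found in 3.48% of neutrophil-like cells in WT 24 h (10 of 287, 1.68 to 6.31), 5.90% in CCR2 KO 24 h (78 of 1321), 22.3% in WT 72 h (41 of 184, 16.5 to 29.0) and 30.2% in CCR2 KO 72 h (169 of 560). In the Siglecf-led cluster alone it was found in 9 of 45 cells of the KO 24 h library and in 36.7% and 42.3% of cells at 72 h, and in the other neutrophil-like clusters 3.30%, 5.41%, 5.81% and 10.0% in the 4 libraries. The unthinned shares over all neutrophil-like cells were 7.82%, 14.3%, 43.2% and 49.1%, and thinning left out 20, 19, 8 and 31 cells. The order of the times was thus the same as that of the CPM. Cd33 in monocyte/Mφ-like cells was found in 4.44% (3.35 to 5.75), 5.97%, 11.1% (8.98 to 13.5) and 11.2% of cells, and unthinned in 31.3%, 41.0%, 60.6% and 50.4%. Siglece in neutrophil-like cells was found in 37.3%, 28.0%, 28.3% and 26.8% of cells, and Siglecg in B-like cells in 2 of 5 cells, 42.9%, 25.0% and 54.5%.

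T-like cells, which should lack these receptors, gave the background. After thinning 0 of 14, 0 of 64, 0 of 50 and 0 of 100 T-like cells had a UMI of any member, except for 1 of 64 with Cd33 in CCR2 KO 24 h (1.56%). With the floor of 3 counts in place of 0, the limit for such a share was 21.4%, 4.69%, 6.0% and 3.0%. This limit is not a Clopper-Pearson interval. At a median of 4817 to 7548 UMIs they were deeper than the neutrophil-like cells (2049 to 3376) and shallower than the monocyte/Mφ-like cells (14193 to 16266). The Siglecf share of neutrophil-like cells was below that limit in WT 24 h and above it in the other 3 libraries. Thinned shares of Siglec1 in monocyte/Mφ-like cells (4.03%, 5.97%, 4.59% and 7.48%) were below that limit in both WT libraries and above it in both CCR2 KO libraries, and no order was read from them. Without thinning, not all T-like sums were at 0. In WT 72 h Cd33 was at 23.2 CPM (8 UMIs), Siglecf at 8.71 CPM (3 UMIs), and Siglece and Siglec1 at 5.81 CPM each. In CCR2 KO at 24 h and 72 h Cd33 was at 9.06 and 2.21 CPM and Siglecf at 0.

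**Figure D4:**
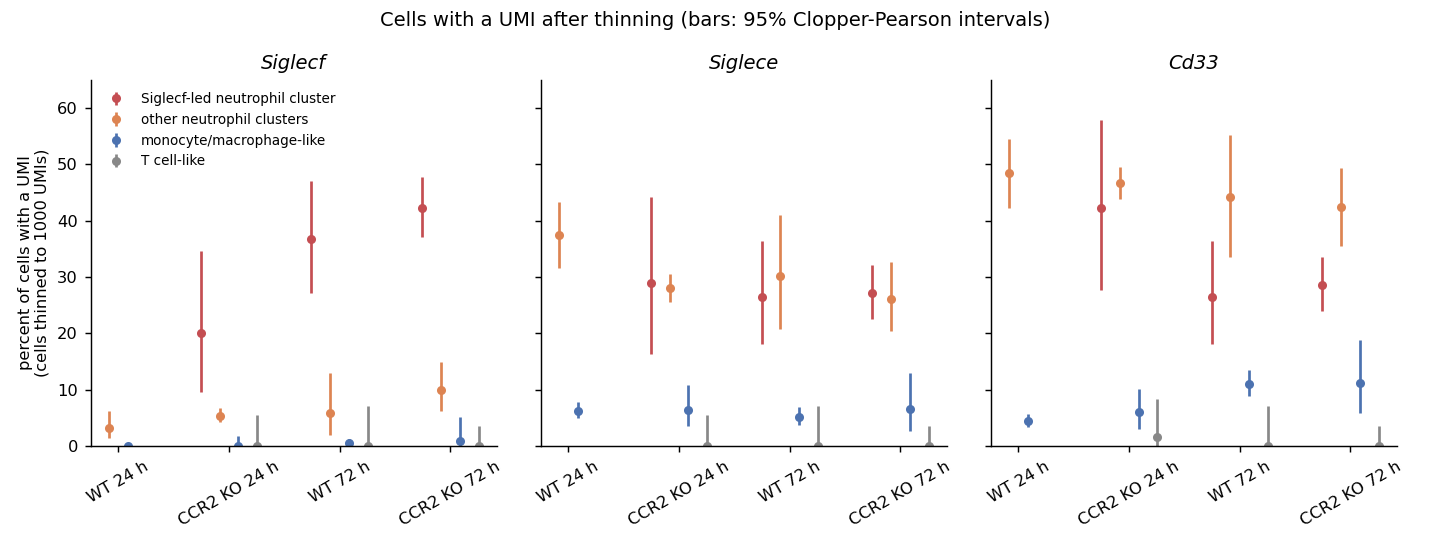
Percent of cells with at least 1 UMI of Siglecf, Siglece or Cd33 after thinning to 1000 UMIs, in each library, for the Siglecf-led and the other neutrophil-like clusters, monocyte/Mφ-like and T-like cells, with 95% Clopper-Pearson intervals and sets under 20 cells left out. Cd33 in monocyte/Mφ-like cells goes from 4.44% and 5.97% at 24 h to 11.1% and 11.2% at 72 h, while T-like cells show 0% but for Cd33 in CCR2 KO 24 h (1.56%).

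For most pairs in neutrophil-like cells, Siglecs were found together in single cells about as often as the product of their shares gives. Among thinned neutrophil-like cells Siglece and Cd33 were both seen in 51, 189, 21 and 58 cells of the 4 libraries, where the products give 50.7, 172, 18.1 and 50.6. Siglecf and Cd33 were both seen in 38 and 58 cells of CCR2 KO 24 h and 72 h (products 36.3 and 57.0) and in 8 cells of WT 72 h (product 14.3). Siglecf and Siglece were both seen in 32 cells of CCR2 KO 24 h, with a product of 21.8. In monocyte/Mφ-like cells of WT 24 h, Siglece and Cd33 were both seen in 11 cells (product 3.37), whereas Siglec1 and Cd33 were both seen in 0 of 1217 (product 2.17). In CCR2 KO 24 h these pairs were seen in 3 (product 0.776) and 0 (product 0.716) of 201 cells. The contrast was absent in WT 72 h, with 3 (product 4.44) and 4 (product 3.99) of 784 cells. These are counts in 1 sample each and are given as a description.

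The monocyte/Mφ-like cells were clustered again, and the sub-clusters differed in their Siglecs. Several sub-clusters came nearly whole from 1 library, so sub-cluster and library cannot be told apart in them. Siglec1 was highest in the sub-cluster led by the interferon-stimulated genes Rsad2, Cxcl9, Cxcl10, Ifit3 and Ifit1 (108 CPM, 88.8 to 129, 77 cells). It was at 61.6 CPM in the Fabp5 sub-cluster (led by Pf4, Fabp5, Spp1, Ppbp and Ednrb, 373 of 400 cells from WT 24 h) and at 31.4 CPM in the Ly6c monocyte one (led by Lrg1, S100a8, Dmkn, Lcn2 and Mgst1, 183 cells). Apart from 20 cells led by neutrophil genes (130 CPM, 92.8 to 178), Siglece was highest in the Cx3cr1 sub-cluster (126 CPM, 109 to 145, led by Mmp13, Pmepa1, Lilra5, Ch25h and Col14a1, 119 cells) and in the one led by Saa3, Cxcl3, Il1a, Fpr1 and Sod2 (113 CPM, 104 to 123, 324 of 329 cells from WT 24 h). It was lowest in the Timp2 sub-cluster (9.81 CPM, 5.91 to 15.3, led by Retnla, Ltc4s, Cd5l, Fcna and Tppp3, 125 of 126 cells from WT 72 h).

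Cd33 was at 9.93 CPM (7.67 to 12.7) in the Fabp5 sub-cluster, 70.0 CPM in the Ly6c monocyte one, 98.6 CPM in the Timp2 one and 106 CPM in the Cd206 one (led by Fcrls, Ms4a7, Apoe, Igf1 and Selenop, 324 of 331 cells from WT 72 h). Within the Cx3cr1 sub-cluster, where 2 libraries had nearly equal numbers, it was at 63.2 CPM in CCR2 KO 24 h (49 cells) and 207 CPM in WT 72 h (48 cells). Within the Ly6c monocyte sub-cluster it was at 67.4 CPM in WT 24 h (129 cells) and 61.0 CPM in WT 72 h (30 cells), so the higher 72 h level was not seen there. The 20 cells led by the neutrophil genes S100a9, Retnlg, S100a8, Hdc and G0s2 had Cd33 at 151 CPM (110 to 201). Cd22 was highest in the Cd206 sub-cluster (23.1 CPM, 18.9 to 27.9) and had no UMI in the 183 Ly6c monocytes, which allows up to 1.33 CPM.

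**Figure D5:**
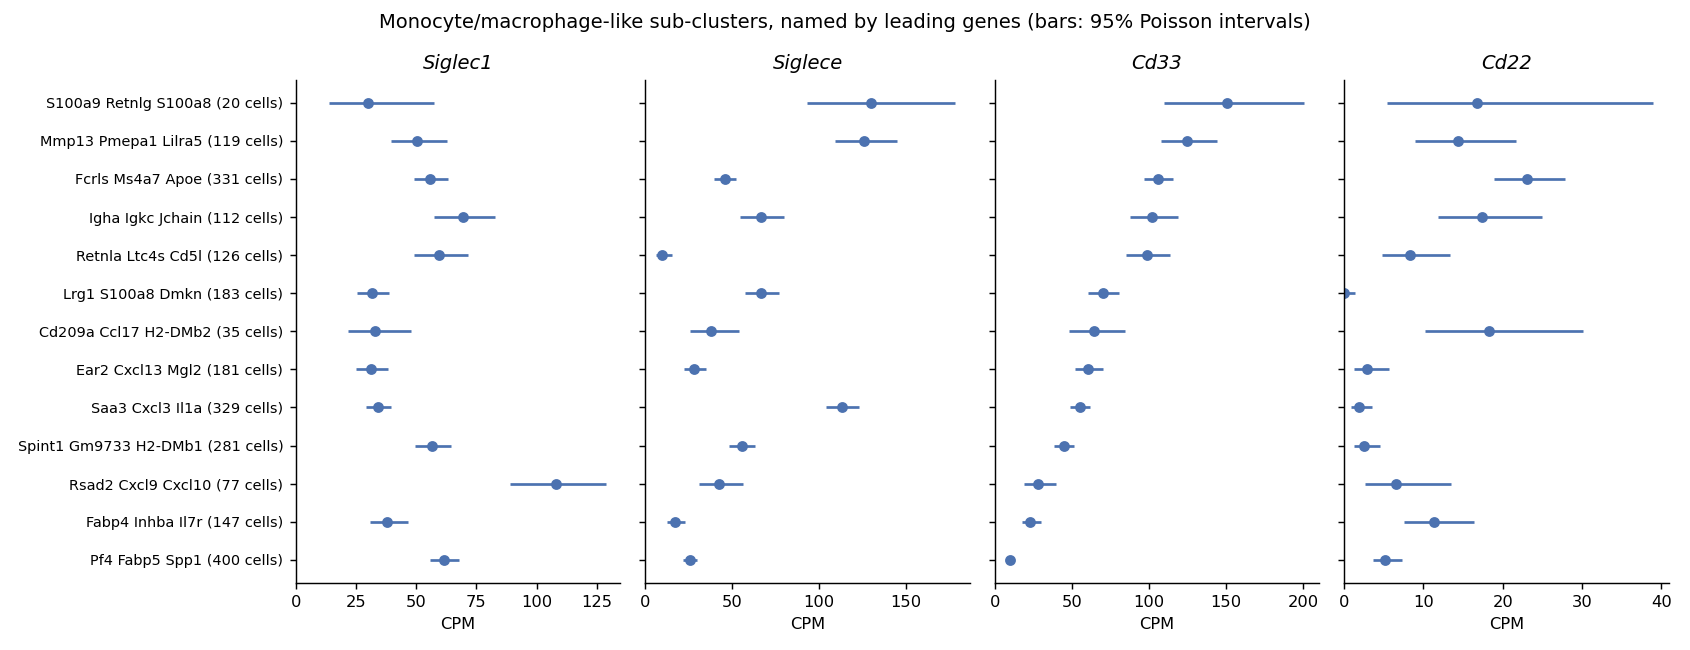
Levels of Siglec1, Siglece, Cd33 and Cd22 (CPM, linear axes, 1 panel a gene) in the 13 monocyte/Mφ-like sub-clusters, each named by its 3 leading genes, with the 4 libraries pooled and 95% Poisson intervals as bars. Cd33 is lowest in the Pf4-led Fabp5 sub-cluster (9.93 CPM) and Siglec1 highest in the Rsad2-led one (108 CPM).

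Across 20 sums of 1 class in 1 library with at least 20 cells, the members fell into groups of like pattern. Sums of 1 library share its depth and those of 1 class its cell type, so the Pearson correlations of log2(CPM + 10) are given without a p. Cd33 and Siglece were most alike (r = 0.96), followed by Cd33 and Siglecf (0.82) and Siglece and Siglecf (0.80), while Cd22 and Siglecg gave 0.45 and Siglec1 and Siglece 0.00. Of all genes, those most like Siglecf were Ltf (0.95), Ccdc189 (0.94), Gm12589 (0.93), Rpl3l (0.93) and Ceacam10 (0.92). Those most like Siglece were Nlrp3 (0.99), B430306N03Rik (0.98), Atp6v1g1 (0.98), Il13ra1 (0.97) and Il1b (0.97), and those most like Cd33 were F630028O10Rik (0.98), Crk (0.97), Siglece (0.96), Ampd3 (0.96) and Nlrp3 (0.96). Siglec1 was followed most closely by Itsn1 (0.98), Pf4 (0.98), Snx24 (0.98), Rgl1 (0.97) and Kcnk13 (0.97). Bcl11a (0.94), Lrrk2 (0.93), H2-Oa, Gcsam and H2-DMb2 (0.91) were most like Siglecg, and Bcar3 (0.92), 1700030K09Rik (0.90), Slc41a2 (0.90), Pold4 (0.89) and Snn (0.89) most like Cd22. For Siglech the nearest were Bcl2l14 (0.88), A530099J19Rik, Ttc39a, Tlr11 (0.86) and Adgra2 (0.85), but no pDC-like sum had 20 cells, so these sums leave out 283 of its 321 UMIs. With a pseudocount of 1 in place of 10, 1 (Siglecf) to 3 (Siglece, Cd33 and Siglech) of the 5 genes were again among the nearest.

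The genes around the Siglecs, a list of 44 that make, cap, cleave or carry sialic acid or act downstream of these receptors, were followed in monocyte/Mφ-like cells. In WT, 14 of the 37 listed genes with enough UMIs were at least 2-fold higher at 72 h than at 24 h and 0 were lower, against 13.7% and 6.35% of all genes tested, with a median log2 ratio of 0.47 against 0.08. Sialyltransferases, the enzymes that add sialic acid to glycans, made up 7 of the 14 (of 11 measured, median 1.22). St3gal6 was at 4.31 CPM at 24 h and 24.4 CPM at 72 h (log2 2.50, 2.14 to 2.88) and St8sia6 at 0.905 and 4.92 CPM (log2 2.44). Cmah, which converts Neu5Ac to Neu5Gc, the form of sialic acid that mouse CD22 prefers, was at 0.373 and 7.51 CPM (log2 4.33, 3.23 to 5.69). Only 1 of 11 downstream adaptors and enzymes was 2-fold higher. Tyrobp, the Siglec-H adaptor, was at 2218, 2075, 2151 and 1509 CPM in the 4 libraries, and Ptpn6 at 318, 251, 298 and 284 CPM.

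The same list was read in neutrophil-like cells. In WT 0 of 22 listed genes were 2-fold higher at 72 h and 2 lower (23.9% and 5.76% of all genes), and in CCR2 KO 3 of 28 were higher and 1 lower (28.2% and 3.85%). Both lower genes in WT were sialyltransferases, named after their values were seen. St3gal6, which was higher at 72 h in the WT monocyte/Mφ-like cells, was here at 442 CPM at 24 h and 198 CPM at 72 h in WT (log2 -1.16, -1.50 to -0.82), and at 428 and 172 CPM in CCR2 KO (log2 -1.31, -1.48 to -1.16). St3gal5 was at 30.7 and 14.6 CPM in WT (log2 -1.07, -2.54 to 0.20).

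In the monocyte/Mφ-like cells of CCR2 KO 4 of 33 listed genes were 2-fold higher at 72 h than at 24 h and 0 lower (12.7% and 5.36% of all genes). Npl, the lyase that breaks down free sialic acid, was at 12.0 and 108 CPM (log2 3.17, 2.69 to 3.67), St6gal1 at 8.64 and 39.9 CPM (log2 2.21) and Siae, a sialic acid esterase, at 3.62 and 13.6 CPM (log2 1.91). Between genotypes few genes moved past 2-fold in monocyte/Mφ-like cells, listed or not. At 24 h St3gal6 (log2 2.14, 1.65 to 2.62) and Mag (1.18, 0.46 to 1.87) were higher and St3gal5 (-1.48, -2.31 to -0.75) lower in CCR2 KO, of 35. Of all genes tested 3.84% were higher and 3.87% lower. At 72 h Npl was higher (log2 1.45, 1.21 to 1.69) and St8sia6 lower (-1.65, -3.97 to -0.03, 3 UMIs in CCR2 KO), of 37. The shares of all genes were then 7.30% and 5.22%. Mag, another Siglec that is known from glia, was at 3.19, 7.25, 10.2 and 10.5 CPM in the monocyte/Mφ-like cells of the 4 libraries.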

How the data were processed

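Single cells were processed by the authors with 10x Genomics 3′ chemistry and Cell Ranger 3.0.2 on GRCm38 (mm10), and filtered in Seurat to cells with over 200 genes and under 10% mitochondrial UMIs. The deposited values are raw UMI counts per gene and cell, without normalization. Their limits held in the files (lowest 250 genes, highest 9.99%). Whether doublets were removed is not given in the sources used here. Scrublet called 11 of 5811 cells, too few to have worked.

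Cells were clustered with scanpy 1.11.5 and leidenalg 0.10.2 (10000 UMIs a cell, 2000 variable genes without the Siglecs, 30 components, 20 neighbours, resolution 1). Ccr2 was kept in this clustering and was left out, with the Siglecs, only when the monocyte/Mφ-like cells were clustered again. Clusters were named from markers by a mean score of at least 0.6 with markers at 20 CPM, sub-clusters at 0.75. UMIs were summed per class and library in Python 3.11.15 and compared as CPM. Levels have exact Poisson, ratios exact conditional binomial and shares Clopper-Pearson intervals. The 95% intervals and the floor of 3 counts for a sum of 0 cover counting error only. A gene was counted past 2-fold with at least 20 UMIs in 1 of the libraries. Alternatives used edgeR 4.0.16 (trimmed-mean scaling) and DESeq2 1.42.0 (size factors) for scaling only, since no group had replicates and no test was run. Sums were checked on simulated data.

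The members, lists and markers were chosen with earlier results of these data known, and the score thresholds, the split-off pDC-like cells and the sub-clustering were set after seeing these data. The named genes were the 7 members, the 5 genes most like each, the 3 listed genes furthest past 2-fold in each direction and the 5 leading genes of a cluster. Sequences came from RefSeq, which gave none for Siglec1.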

Additional observations from a re-analysis of the deposited data

Results flagged for a closer look

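A total of 9 pairs of differences pointed opposite ways in the 2 genotypes or at the 2 times. With 1 library a group, none of these differences of differences was tested. Values are log2 ratios, and each difference is the later time minus the earlier one, or CCR2 KO minus WT. Over all cells, Cd33 was higher at 72 h than at 24 h in WT (0.48) and lower in CCR2 KO (-1.07), a difference of -1.55. Cd22 over all cells stood above WT in CCR2 KO at 24 h (1.49) and below it at 72 h (-2.0), a difference of -3.49, which is also the difference between its ratios of 72 h to 24 h in WT (1.81) and CCR2 KO (-1.68).

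Within monocyte/Mφ-like cells 5 differences turned direction. For CCR2 KO over WT, Siglece went from -0.30 at 24 h to 0.74 at 72 h (difference 1.04), Siglec1 from -0.26 to 0.34 (0.60), Siglecg from 1.60 to -1.79 (-3.39, with 3 UMIs in CCR2 KO 72 h) and Cd22 from 1.52 to -0.80 (-2.32). For 72 h over 24 h, Siglec1 was at -0.23 in WT and 0.37 in CCR2 KO (0.60). Without cells above 5% mitochondrial UMIs the CCR2 KO to WT ratios of Siglece and Siglec1 at 72 h were -0.24 and -0.44, so these flags rest on cells with a high mitochondrial share. In neutrophil-like cells, Siglecf stood above WT in CCR2 KO at 24 h (0.59) and below it at 72 h (-0.32), a difference of -0.91.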

How the results depend on the processing

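No paired analysis was possible because each group has 1 library. Among log2 ratios past 2-fold, Siglech in cDC-like cells was the only one to change sign under the settings run: for 72 h over 24 h in CCR2 KO, from 1.34 to -0.24 at a Leiden resolution of 2, -0.62 with a marker gate on each cell, -0.86 at a 5% mitochondrial limit and -1.04 without cells with a non-immune marker UMI, and for CCR2 KO over WT at 72 h from 4.17 to -0.08 at the 5% limit. It rests on few UMIs. With each cell weighted equally, 3 in place of 6 members were 2-fold higher over all cells in CCR2 KO at 24 h, and 1 in place of 2 was lower at 72 h in CCR2 KO, as it was without cells with a non-immune marker UMI. For the sialic acid list in monocyte/Mφ-like cells, a 1.5-fold limit gave 9 higher and 3 lower for 72 h over 24 h in CCR2 KO, 1 lower in WT, 4 higher and 4 lower for CCR2 KO over WT at 24 h and 7 lower at 72 h. Without a minimum count 2 were higher at 72 h. The 5% limit left out 1065 cells and moved 27 of 80 log2 ratios beyond their counting interval, beside the 2 Siglech ratios that changed sign. At this limit 8 of 80 changed sign in all, among them 4 under 2-fold in monocyte/Mφ-like cells: Siglece (0.74 to -0.24) and Siglec1 (0.34 to -0.44) for CCR2 KO over WT at 72 h, and Siglece (0.21 to -0.52) and Siglec1 (0.37 to -0.40) for 72 h over 24 h in CCR2 KO. With each cell weighted equally 8 of 81 changed sign, none of them past 2-fold. Without the 5% of cells with most UMIs, an alternative added after seeing the data, 14 of 81 moved and 9 changed sign, among them Siglece in monocyte/Mφ-like cells at 24 h, from -0.30 to 0.02. Leaving out a replicate was not possible. Shallow libraries and classes of few cells (B-like, pDC-like) limit the values most.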
